A study of Mus musculus with 24 samples.

Results

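The AP-1 family of transcription factors and its relative Atf3 were followed across a study of interferon-treated mouse NIH-3T3 cells, an immortalised embryonic fibroblast line. The members were the 8 genes Fos, Fosb, Fosl1, Fosl2, Jun, Junb, Jund and Atf3, taken by gene symbol from the platform annotation of the array. They were measured by 12 probe sets (short groups of oligonucleotides that each report on a single transcript region), out of 45037 in the table, which named 18193 genes. All 24 arrays measured total cellular RNA. The first 3 groups held 3 arrays each, taken 3 h after the start: cells with 100 U/ml IFN-alpha, cells with 100 U/ml IFN-gamma, and mock cells. All 3 had received 500 µM 4-thiouridine (4sU, a nucleoside that cells build into new RNA) between 150 and 180 min. The next 3 groups held 4 arrays each at 1 h, again with 100 U/ml IFN-alpha, with 100 U/ml IFN-gamma or as mock, and all had 200 µM 4sU for 60 min from the start. The last 3 arrays came from mock cells that had no 4sU, also at 1 h. Every culture, mock included, was given fresh, warmed medium at the start, and there was no array from before that change. Whether replicates were separate cultures is not said in the labels. The p-values reflect how far arrays lay from their group means, pooled over all 7 groups, and that scatter may be technical. In whole cultures, fewer cells with a transcript and less of it per cell cannot be told apart.

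AP-1 is a dimer of basic leucine zipper proteins. The Fos proteins (Fos, Fosb, Fosl1, also called Fra-1, and Fosl2, also called Fra-2) bind DNA only with a partner, usually a Jun protein, whereas Jun, Junb and Jund can also pair among themselves. Fos, Fosb, Jun, Junb and Atf3 are immediate early genes: in fibroblasts given serum or growth factors their transcripts appear within minutes, through MAP kinases and, for Fos, serum response factor, and decay quickly. Jund is known for a steady level, and Fosl1 and Fosl2 for a later and longer rise. Atf3 belongs to the ATF/CREB family, is induced by many stresses, can pair with Jun proteins and often represses its targets. Interferons act mainly through JAK kinases and STAT factors, whose binding sites are called GAS (IFN-gamma) and ISRE (IFN-alpha).

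The DNA just before the start of Jun, Atf3 and Fos is shown because the results below turn on these genes. RefSeq promoter windows on GRCm38.p6 were found for 7 of the 8 members, Fosl1 having no entry. Each sequence is the 250 bases before the annotated start, written along the gene's own strand. Capitals mark the matches to the motifs searched. Jun lies at chr4:95052223-95052472 on the minus strand, Atf3 at chr1:191183334-191183583 on the minus strand and Fos at chr12:85473640-85473889 on the plus strand.
Jun: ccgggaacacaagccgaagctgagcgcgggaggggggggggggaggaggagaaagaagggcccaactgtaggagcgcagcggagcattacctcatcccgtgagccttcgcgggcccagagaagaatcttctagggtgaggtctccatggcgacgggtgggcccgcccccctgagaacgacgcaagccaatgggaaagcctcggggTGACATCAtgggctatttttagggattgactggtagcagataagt
Atf3: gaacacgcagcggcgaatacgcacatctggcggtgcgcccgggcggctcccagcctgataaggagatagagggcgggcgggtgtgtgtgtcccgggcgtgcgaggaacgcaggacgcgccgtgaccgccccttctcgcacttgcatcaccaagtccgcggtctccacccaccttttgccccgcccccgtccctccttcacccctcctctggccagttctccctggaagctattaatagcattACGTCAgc
Fos: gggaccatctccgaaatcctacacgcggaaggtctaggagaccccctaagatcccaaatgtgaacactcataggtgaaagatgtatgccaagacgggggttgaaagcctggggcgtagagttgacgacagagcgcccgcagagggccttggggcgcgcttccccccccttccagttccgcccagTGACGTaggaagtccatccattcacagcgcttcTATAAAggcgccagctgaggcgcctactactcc

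In the Jun window the capitals are an AP-1-like octamer, TGACNTCA, 45 to 38 bases before the start. In the Atf3 window they are the core of the cAMP response element (CRE), TGACGT, read on the other strand 8 to 3 bases before the start. The Fos window held the same core at 66 to 61 bases and a TATA box, TATAAA, at 33 to 28 bases before the start. Both strands were searched for these and for 4 other motifs: TGANTCA (the classical AP-1 site), TTCNNNGAA (GAS), GAAANNGAAA (the ISRE core) and the CArG box that serum response factor binds. Of those, Fosl2 held an ISRE core, 221 to 212 bases before its start, and no other match was found in the 7 windows. The letters of the CRE core lie within some matches of the octamer. Over 32851 RefSeq windows of this length the octamer was present in 7.49%, the CRE core in 6.47%, the TATA box in 12.4%, the classical AP-1 site in 6.75%, GAS in 7.02%, the ISRE core in 2.98% and the CArG box in 1.47%. A match is a description of letters and not a tested binding site.

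Values are GCRMA signals on the log2 scale, and a signal above log2 4 was counted as above background. A probe set was tested if it passed that level on at least 3 arrays, which 19305 of 45037 did. Of the 12 member probe sets 10 passed, at least 1 for each of the 8 genes. The other 2 were never above background: 1 of the Fosl2 probe sets (1422931_at) measured 2.87 to 3.58 and 1 of the Jund probe sets (1440265_at) 2.21 to 2.40. Fosb passed through 4 arrays, all at 1 h, so the test on it starts from a probe set that had to be high there. Signals of different probe sets are not on a common scale, and levels are compared only within a probe set.

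**Figure D1:**
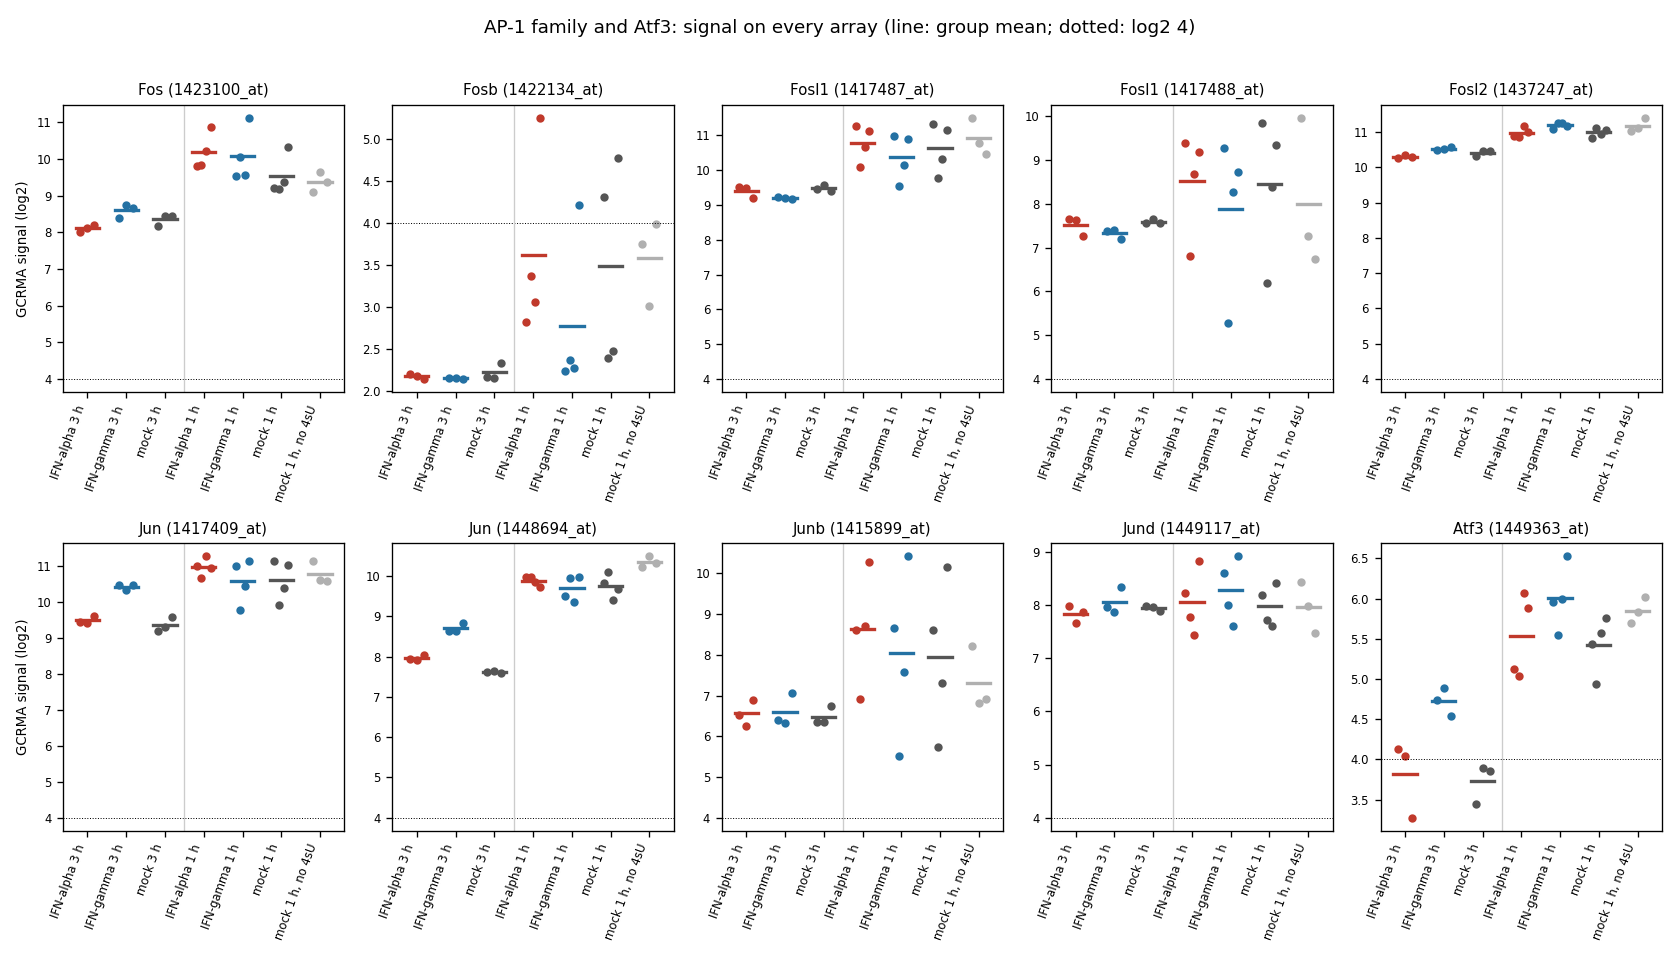
Signal (GCRMA, log2) of the 10 tested member probe sets on each of the 24 arrays, 1 panel per probe set, with a point per array, a short line at each group mean and a dotted line at the background level of log2 4. The 3 h groups stand left of the grey divider and the 1 h groups right of it, with mock cells without 4sU last, and for Fos every 3 h array (8.02 to 8.76) lies below every 1 h array (9.11 to 11.13).

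The arrays carried the marks of interferon-treated fibroblasts. All 9 fibroblast markers listed were tested, with a median level of 12.81 and the highest for Vim at 13.81. Of 8 leukocyte markers only Cd14 passed the filter, at 5.35, and none of 6 epithelial or endothelial markers did, the highest being Epcam at 3.46. Irf1, a direct interferon target, was higher than in mock cells by 0.98 with IFN-alpha and 4.54 with IFN-gamma at 3 h, and by 3.35 with IFN-alpha and 5.28 with IFN-gamma at 1 h. On 5 of the 1 h arrays the 3′ beta-actin probe set exceeded the 5′ one by 2.22 to 3.43, against 0.78 to 1.37 on the other 19 arrays, a measure of how much RNA was intact. These were replicate 2 of the IFN-alpha, IFN-gamma and mock cells with 4sU and replicates 2 and 3 of those without. An 18S ribosomal RNA probe set read 10.03 on replicate 3 of the IFN-alpha cells at 3 h. The median SD between replicates was 0.12 to 0.13 within the 3 h groups and 0.35 to 0.40 within the 1 h groups. The main fit gave each probe set 1 spread over the 7 groups. Its SEs at 3 h therefore took in the wider scatter at 1 h, and those at 1 h the narrower scatter at 3 h.

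The largest contrast for the AP-1 genes was between the 2 sampling times. Fos, Jun, Fosl1, Fosl2 and Atf3 were lower at 3 h than at 1 h in IFN-alpha, IFN-gamma and mock cells alike, each by at least 1 probe set. Called lower at an adjusted p under 0.05 (limma, Benjamini-Hochberg over 19305 probe sets) were 6 of 10 tested member probe sets in IFN-alpha cells, where 4.57% of all probe sets were called lower. In IFN-gamma cells 5 of 10 were called lower, against a background of 5.91%, and in mock cells 6 of 10, against 5.88%. A fit of only the 2 groups compared gave the same differences. It called 6 of 10 in IFN-alpha, 3 of 10 in IFN-gamma and 2 of 10 in mock cells. Over all probe sets, in either direction, it called 1250, 1088 and 822 in the same order. No member was called higher, against 4.71% of all probe sets in IFN-alpha, 7.31% in IFN-gamma and 5.45% in mock cells, and all 10 differences were below 0 in each treatment. The median difference of the 10 was -1.47 in IFN-alpha, -0.82 in IFN-gamma and -1.22 in mock cells, beside 0.03, 0.07 and 0.06 over all tested probe sets. Of these 10, Fosb was tested only through arrays at 1 h, so its sign was set in advance. Jun and Fosl1 each entered by both probe sets. The time, the 4sU dose and the labelling window changed together, and their parts cannot be told apart.

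Fos, the founding member and the usual partner of Jun, showed the difference on every array. It measured 8.02, 8.13 and 8.19 in IFN-alpha cells at 3 h, against 9.82, 9.85, 10.22 and 10.87 at 1 h. In IFN-gamma cells the values were 8.39, 8.76 and 8.65 at 3 h, against 9.55, 10.06, 9.57 and 11.13 at 1 h. In mock cells they were 8.17, 8.45 and 8.46 at 3 h, against 9.22, 9.18, 9.38 and 10.33 at 1 h. No 3 h array reached the lowest 1 h array, and replicate 4 was the highest 1 h array in each treatment. The difference was -2.08 ± 0.33 (SE; adjusted p = 0.000221, limma) in IFN-alpha cells, which is 4.22-fold lower. It was -1.47 (adjusted p = 0.00504, limma; 2.78-fold lower) in IFN-gamma cells and -1.17 (adjusted p = 0.0272, limma; 2.25-fold lower) in mock cells. The call in mock cells was the least firm: without replicate 4 at 1 h the difference was -0.90 (adjusted p = 0.0771, limma), it was also lost without any 1 of the 3 h mock arrays (differences of -1.08 to -1.22), and against the 1 h mock cells without 4sU it was -1.01 (adjusted p = 0.0518, limma). In a fit of only the 2 groups compared it was lost in IFN-gamma (adjusted p = 0.0677, limma) and mock cells (0.0711).

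Jun, the main DNA-binding partner of the Fos proteins, was read by 2 probe sets, both called lower at 3 h in IFN-alpha and mock cells. By 1448694_at it measured 7.94, 7.91 and 8.04 in IFN-alpha cells at 3 h, against 9.98, 9.98, 9.86 and 9.73 at 1 h. In IFN-gamma cells it measured 8.63, 8.65 and 8.84 at 3 h, against 9.51, 9.94, 9.35 and 9.97 at 1 h. In mock cells it measured 7.63, 7.63 and 7.60 at 3 h, against 9.83, 10.09, 9.41 and 9.69 at 1 h. The times did not overlap in any treatment, and at 3 h the IFN-gamma arrays were the highest and the mock arrays the lowest. The differences were -1.92 ± 0.16 (adjusted p = 3.70e-08, 3.79-fold lower) in IFN-alpha cells, -0.99 (adjusted p = 0.000284, 1.99-fold lower) in IFN-gamma cells and -2.14 (adjusted p = 3.03e-08, 4.40-fold lower) in mock cells, by limma. The other Jun probe set, 1417409_at, fell by 1.49 ± 0.29 (adjusted p = 0.00176, limma) in IFN-alpha cells and by 1.26 (adjusted p = 0.00767, limma, and 0.0652 in a fit of only the 2 groups compared) in mock cells. In IFN-gamma cells its difference was -0.16 with a 95% interval of -0.77 to 0.44, and it did not pass the test (adjusted p = 0.727, limma). At 1 h these cells measured 10.99, 9.76, 10.43 and 11.13 by it, the lowest on an array of high beta-actin difference. On the 5 such arrays it read 9.76 to 10.66, against 10.38 to 11.25 on the other 10 at 1 h.

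Fosl2, which encodes Fra-2, had the smallest SE of the 10 member probe sets in the fit. It measured 10.27, 10.34 and 10.30 in IFN-alpha cells at 3 h, against 10.89, 10.88, 11.18 and 11.01 at 1 h. In IFN-gamma cells it measured 10.50, 10.52 and 10.59 at 3 h, against 11.09, 11.25, 11.27 and 11.16 at 1 h. In mock cells it measured 10.32, 10.45 and 10.45 at 3 h, against 10.83, 11.13, 10.95 and 11.07 at 1 h. All 9 arrays at 3 h lay below all 15 at 1 h. The change was the smallest of those called, at -0.68 ± 0.12 (adjusted p = 0.000598, 1.61-fold lower) in IFN-alpha, -0.66 (adjusted p = 0.000799, 1.58-fold lower) in IFN-gamma and -0.58 (adjusted p = 0.00348, 1.50-fold lower) in mock cells, by limma. The mock call was lost in a fit of only the 2 groups compared (adjusted p = 0.0766, limma).

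Fosl1, which encodes Fra-1, fell by 1 probe set and did not pass by the other. By 1417487_at its 9 arrays at 3 h spanned 9.17 to 9.57, with a median of 9.42, and its 15 arrays at 1 h spanned 9.55 to 11.51, with a median of 10.80. Within each treatment the times did not overlap. The differences were -1.38 ± 0.37 (adjusted p = 0.0211) in IFN-alpha, -1.19 (adjusted p = 0.0392) in IFN-gamma and -1.16 (adjusted p = 0.0473) in mock cells, by limma. These calls did not hold without some single arrays: they were lost for 5 of 7 left-out arrays in IFN-alpha cells, 5 of 7 in IFN-gamma cells and 6 of 7 in mock cells. The adjusted p then reached 0.0873 without 1 array in IFN-alpha, 0.114 in IFN-gamma and 0.139 in mock cells, and the left-out arrays that kept the call were replicates 2 and 3 at 1 h with either interferon and replicate 2 in mock cells at 1 h. In a fit of only the 2 groups compared it was lost in IFN-gamma (adjusted p = 0.0908, limma) and mock cells (0.124).

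On the 1 h arrays of high beta-actin difference the second Fosl1 probe set and Junb read lowest. Most of these arrays carried replicate number 2, and arrays of a number deviated together, so RNA intactness and replicate set cannot be told apart. By 1417488_at the 5 arrays at 1 h with a high beta-actin difference measured 5.29 to 7.26 for Fosl1, against 8.28 to 9.97 on the other 10 at 1 h. Junb, a Jun protein that often opposes Jun, measured 5.50 to 6.92 on those 5 arrays and 7.31 to 10.42 on the other 10. For both the sets of arrays did not overlap, whereas Fosl2 measured 10.88 to 11.40 on the 5 and 10.83 to 11.27 on the 10. At 3 h Junb measured 6.53, 6.26 and 6.89 in IFN-alpha cells, 6.39, 6.31 and 7.06 in IFN-gamma cells and 6.36, 6.35 and 6.74 in mock cells. The difference of Junb between the times did not pass in any treatment, at -2.07 ± 0.95 (adjusted p = 0.194) in IFN-alpha, -1.45 (adjusted p = 0.320) in IFN-gamma and -1.47 (adjusted p = 0.312) in mock cells, by limma. Without the 5 arrays it was -2.64 (adjusted p = 0.0171), -2.29 (adjusted p = 0.0293) and -2.21 (adjusted p = 0.0365) in the same order, and each passed. For Fosl1 by 1417488_at the differences without them were -1.57 (adjusted p = 0.00264), -1.43 (adjusted p = 0.00424) and -1.60 (adjusted p = 0.00263), against -1.001, -0.57 and -0.85 with all arrays, none of which passed. For both probe sets the 5 arrays were the lowest at 1 h, so a larger fall follows from leaving them out.

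**Figure D2:**
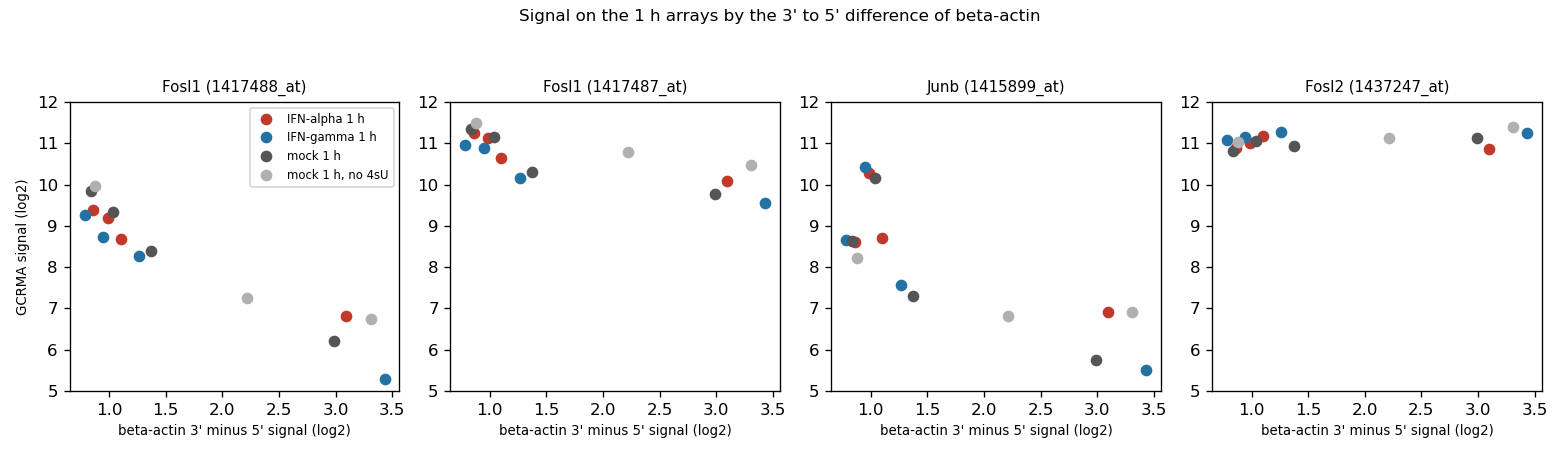
Signal (GCRMA, log2) of Fosl1 by both probe sets, of Junb and of Fosl2 on the 15 arrays at 1 h, against the beta-actin 3′ minus 5′ difference of the array (log2), coloured by group. On the 5 arrays beyond 2 on the horizontal axis, Fosl1 by 1417488_at (5.29 to 7.26) and Junb (5.50 to 6.92) lie below all others, and Fosl2 (10.88 to 11.40) does not.

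Fosb, a close relative of Fos, was near or below background. It measured 2.20, 2.18 and 2.14 in IFN-alpha, 2.16, 2.15 and 2.14 in IFN-gamma and 2.17, 2.15 and 2.33 in mock cells at 3 h. At 1 h it measured 2.81, 3.37, 3.05 and 5.26 in IFN-alpha, 2.23, 2.36, 2.27 and 4.22 in IFN-gamma, 4.31, 2.38, 2.47 and 4.77 in mock cells, and 3.75, 3.01 and 3.99 in mock cells without 4sU. Replicate 4 was the highest array in all 3 groups with 4sU. No difference between the times passed the test (adjusted p = 0.136 in IFN-alpha, 0.488 in IFN-gamma and 0.167 in mock cells, limma), and no fold is given because both means were below background. With the replicate number as a block shared by both times, the IFN-alpha comparison fell under the threshold (adjusted p = 0.0468, limma). All but 1 of its arrays were below background, so no size of change is read from it.

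Atf3 was above background on all 15 arrays at 1 h and on 5 of 9 at 3 h. It measured 4.13, 4.04 and 3.28 in IFN-alpha cells at 3 h, against 5.12, 5.04, 6.07 and 5.89 at 1 h. In IFN-gamma cells it measured 4.74, 4.89 and 4.53 at 3 h, against 5.96, 5.55, 5.996 and 6.52 at 1 h. In mock cells it measured 3.44, 3.90 and 3.86 at 3 h, against 5.43, 4.94, 5.57 and 5.76 at 1 h. The times did not overlap in any treatment, and the mock arrays at 3 h were all below background. The differences were -1.72 ± 0.28 (adjusted p = 0.000243, at least 2.78-fold lower) in IFN-alpha cells, -1.28 (adjusted p = 0.00352, 2.44-fold lower) in IFN-gamma cells and -1.69 (adjusted p = 0.000446, at least 2.69-fold lower) in mock cells, by limma.

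Jund, the member known for a steady level, did not pass between the times. Its 9 arrays at 3 h spanned 7.67 to 8.35, with a median of 7.97, and its 15 arrays at 1 h spanned 7.43 to 8.92, with a median of 7.998. The differences of -0.23 in IFN-alpha, -0.22 in IFN-gamma and -0.03 in mock cells lay within the spread between arrays. The 95% interval in mock cells was -0.70 to 0.64.

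**Figure D3:**
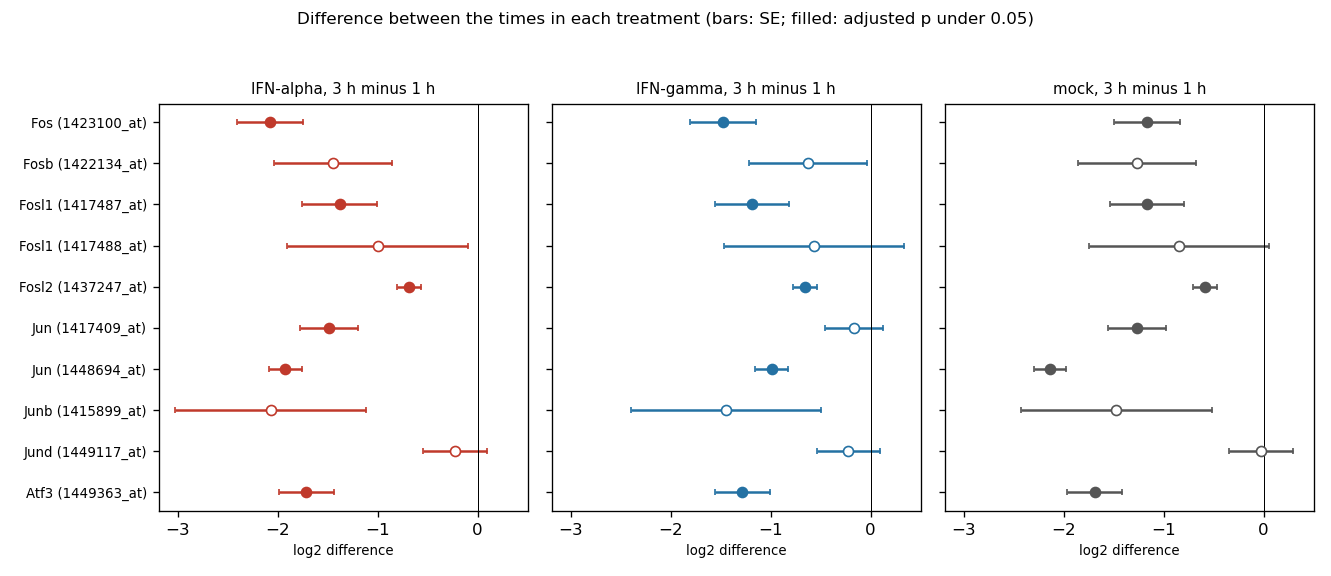
Difference between the times (log2, 3 h minus 1 h) of the 10 tested member probe sets in IFN-alpha, IFN-gamma and mock cells, with bars of 1 SE, filled where the limma adjusted p was under 0.05. All points lie left of 0, and Jun by 1417409_at in IFN-gamma cells (-0.16) stands well right of its place in mock cells (-1.26).

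Between treatments the member that moved was Jun. At 3 h it was higher in IFN-gamma cells than in mock cells by both probe sets. In the values given above, its 3 IFN-gamma arrays by 1448694_at (8.63, 8.65 and 8.84) stood over the 3 mock arrays (7.63, 7.63 and 7.60), which is 1.09 ± 0.17 higher (SE; adjusted p = 0.000437, limma) or 2.12-fold. This was 1 of 10 member probe sets called higher, against 1.88% of all probe sets, and it held without any 1 of the 6 arrays (adjusted p from 0.00211 to 0.00494, limma). By 1417409_at the IFN-gamma arrays measured 10.45, 10.33 and 10.47 and the mock arrays 9.19, 9.29 and 9.56. The difference of 1.07 ± 0.31 (2.10-fold) was as large and the groups did not overlap, but it did not pass over all probe sets (adjusted p = 0.111, limma). With the replicate number as a block it did (adjusted p = 0.00435, limma).

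Atf3 at 3 h was likewise highest with IFN-gamma. The 3 IFN-gamma arrays (4.74, 4.89 and 4.53) were all above background and the 3 mock arrays (3.44, 3.90 and 3.86) all below it. The difference of 0.99 ± 0.30, at least 1.65-fold, did not pass (adjusted p = 0.136, limma) and passed with the block (adjusted p = 0.00533, limma). Fos, Fosb, Fosl1, Fosl2, Junb and Jund differed from mock cells by -0.27 to 0.24 with IFN-gamma at 3 h, and none passed. In the 3 numbered pairs Fos and Fosl2 were higher each time, by 0.20 to 0.31 and 0.07 to 0.18. Fosl1 was lower each time, with differences of -0.36 to -0.21 by 1417487_at and -0.38 to -0.18 by 1417488_at.

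With IFN-alpha at 3 h none of the 10 member probe sets was called, against 1.55% of all probe sets (limma). None had an unadjusted p under 0.05, which 607 of all 19305 probe sets had. Jun by 1448694_at measured 7.94, 7.91 and 8.04 in IFN-alpha cells and 7.63, 7.63 and 7.60 in mock cells. The groups did not overlap, and the difference was 0.34 ± 0.17 (adjusted p = 1.00, limma; 95% interval -0.02 to 0.71). Fos was lower in all 3 numbered pairs, which differed by -0.32 to -0.15, and the difference was -0.25 (adjusted p = 1.00, limma). In the same pairs Fosl2 differed by -0.15 to -0.05 and Jund by -0.30 to -0.01, and Jun was higher by 0.28 to 0.45 by 1448694_at and 0.04 to 0.24 by 1417409_at. Atf3 differed by 0.08 and its groups overlapped.

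**Figure D4:**
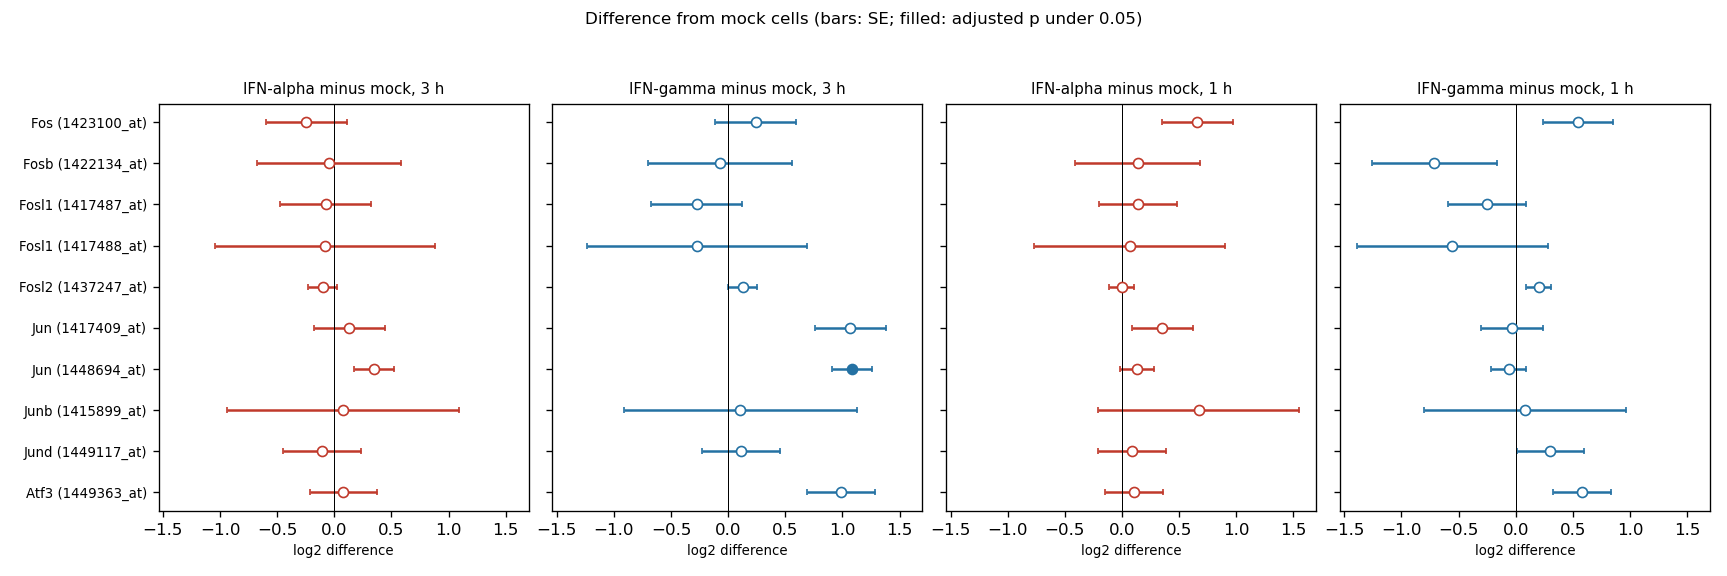
Difference from mock cells (log2, interferon minus mock) of the 10 tested member probe sets for IFN-alpha and IFN-gamma at 3 h and at 1 h, with bars of 1 SE, filled where the limma adjusted p was under 0.05. The filled point is Jun by 1448694_at with IFN-gamma at 3 h (1.09), beside which Jun by 1417409_at (1.07) and Atf3 (0.99) lie at about the same difference with wider bars.

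IFN-alpha and IFN-gamma cells at 3 h differed in Jun. By 1448694_at Jun was 1.67-fold lower in IFN-alpha than in IFN-gamma cells, a difference of -0.74 ± 0.17 (adjusted p = 0.0267, limma), and the groups did not overlap. This was 1 of 10 member probe sets called lower, against 0.922% of all probe sets. The call was lost without any 1 of the 6 arrays (adjusted p from 0.0692 to 0.170, differences of -0.78 to -0.67, limma) and after quantile normalization (adjusted p = 0.0553, limma). Jun by 1417409_at differed by -0.94 (adjusted p = 0.270, limma, and 0.0145 with the block) and Atf3 by -0.91, at least 1.59-fold (adjusted p = 0.250, limma, and 0.0122 with the block). In both, the 3 IFN-alpha arrays were below the 3 IFN-gamma arrays.

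At 1 h no member passed in either interferon. With IFN-alpha 0 of 10 were called, against 0.259% of all probe sets (limma). An unadjusted p under 0.05 was seen for 309 of all 19305 probe sets and for 1 of the 10. This was Fos, whose values of 9.82, 9.85, 10.22 and 10.87 in IFN-alpha cells overlapped the 9.22, 9.18, 9.38 and 10.33 of mock cells. The difference was 0.66 ± 0.31, 1.58-fold (unadjusted p = 0.0438, adjusted p = 1.00, limma). Each of the 4 numbered pairs was higher, by 0.54 to 0.84. With the number as a block the adjusted p was 0.0597, and it was 0.0324 where the arrays without 4sU shared the block (limma).

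With IFN-gamma at 1 h 0 of 10 were called, against 0.492% of all probe sets (limma). An unadjusted p under 0.05 was seen for 580 of all 19305 probe sets and for 1 of the 10. This was Atf3, at 5.96, 5.55, 5.996 and 6.52 in IFN-gamma cells and 5.43, 4.94, 5.57 and 5.76 in mock cells. The groups overlapped, and all 4 numbered pairs were higher, by 0.43 to 0.76. The difference was 0.58 ± 0.26, 1.50-fold (unadjusted p = 0.0340, adjusted p = 1.00, limma, and 0.175 with the block). Fos was higher in the 4 pairs too, by 0.19 to 0.87, with a difference of 0.55 (adjusted p = 1.00, limma, and 0.0930 with the block). Fosl2 was higher in the 4 pairs as well, by 0.10 to 0.32, and Jund by up to 0.51. Fosl1 was lower in all 4, with differences of -0.37 to -0.16 by 1417487_at and -0.92 to -0.12 by 1417488_at, and Fosb, mostly below background, was lower in all 4. None of these passed. Jun differed by -0.06 and -0.03 by its 2 probe sets. Between IFN-alpha and IFN-gamma cells at 1 h none of the 10 was called, against 0.363% of all probe sets. None had an unadjusted p under 0.05, which 553 of all 19305 probe sets had.

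The difference of Jun from mock cells with IFN-gamma changed between the times. By 1448694_at it was 1.09 at 3 h and -0.06 at 1 h, and the change of 1.15 ± 0.23 passed its own test (adjusted p = 0.0111, limma). This was 1 of 10 called higher, against 0.787% of all probe sets. The adjusted p was 0.00351 to 0.0494 without any 1 of the 14 arrays, and 0.113 in a fit of only the 4 groups compared (limma). By 1417409_at the change was of like size, 1.10 ± 0.41, and did not pass (adjusted p = 0.733, limma, and 0.0557 with the block). For Atf3 it was 0.41 (adjusted p = 1.00, limma; 95% interval -0.41 to 1.22).

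For IFN-alpha 0 of 10 changes between the times were called, against 0.953% of all probe sets (limma). None had an unadjusted p under 0.05, which 453 of all 19305 probe sets had. Fos had the largest, at -0.91 ± 0.47 (adjusted p = 1.00, limma), its difference from mock cells being -0.25 at 3 h and 0.66 at 1 h. With the block it passed narrowly (adjusted p = 0.0490, limma).

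The label itself was compared in mock cells at 1 h. None of 10 member probe sets was called between cells with and without 4sU, against 0.0311% of all probe sets (limma). An unadjusted p under 0.05 was seen for 1352 of all 19305 probe sets and for 1 of the 10. This was Jun by 1448694_at, at 9.83, 10.09, 9.41 and 9.69 with 4sU and 10.23, 10.49 and 10.34 without. The groups did not overlap, and the difference was -0.59 ± 0.16 (unadjusted p = 0.00156, adjusted p = 0.366, limma). Of the arrays with a high beta-actin difference, 1 was among the 4 with 4sU and 2 among the 3 without, and this probe set read 9.94 to 10.49 on the 5 such arrays at 1 h and 9.35 to 10.23 on the other 10. Without them the difference was -0.58, with replicate 1 the only array left without 4sU. By 1417409_at Jun measured 11.13, 9.92, 10.38 and 11.02 with 4sU and 11.14, 10.61 and 10.56 without, a difference of -0.16. Atf3 measured 5.69, 5.84 and 6.02 without 4sU, and its difference was -0.42 (adjusted p = 0.824, limma). Fos, at 9.11, 9.64 and 9.36 without 4sU, differed by 0.16.

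Ordered by group mean, each member that moved had its 1 h groups first. Fos ran IFN-alpha (10.19), IFN-gamma (10.08), mock (9.53) and mock without 4sU (9.37) at 1 h, with overlapping neighbours, then after a gap IFN-gamma (8.60), mock (8.36) and IFN-alpha (8.11) at 3 h. Jun by 1448694_at ran mock without 4sU (10.35), then IFN-alpha (9.89), mock (9.76) and IFN-gamma (9.69) at 1 h, then IFN-gamma (8.70), IFN-alpha (7.96) and mock (7.62) at 3 h. Its 3 h groups did not overlap with each other, and its 3 groups at 1 h with 4sU did. Atf3 ran IFN-gamma (6.01), mock without 4sU (5.85), IFN-alpha (5.53) and mock (5.43) at 1 h, then IFN-gamma (4.72), IFN-alpha (3.81) and mock (3.74) at 3 h, where the last 2 overlapped. Fosl2 ran IFN-gamma (11.19), mock without 4sU (11.19), mock (10.99) and IFN-alpha (10.99) at 1 h, then IFN-gamma (10.53), mock (10.41) and IFN-alpha (10.30) at 3 h, and of neighbours across the times none overlapped.

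Other genes of the pathway were read from lists drawn from textbook knowledge. Among 19 upstream genes (MAP kinases, their activators and the ternary complex factors) 11 were tested. Srf, serum response factor, fell at 3 h by 1.18 in IFN-alpha, 1.46 in IFN-gamma and 1.27 in mock cells (adjusted p = 0.000585, 4.85e-05 and 0.000379, limma). Map2k1, the kinase MEK1 that activates ERK, was higher at 3 h by 0.97, 0.97 and 0.58 in the same order. No other upstream gene passed between the times, and none passed in any comparison of treatments. The median difference of the list was 0.07, -0.03 and 0.02, close to that of all probe sets.

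Of 9 genes that restrain or bind the pathway's products all were tested, and 4 fell at 3 h in each treatment. Dusp5 and Dusp6 encode phosphatases of ERK. The difference of Dusp5 was -2.29 in IFN-alpha, -1.79 in IFN-gamma and -2.49 in mock cells, and that of Dusp6 -1.56, -1.17 and -1.36. Zfp36 and Zfp36l1 promote decay of AU-rich transcripts. The difference of Zfp36 was -2.15, -2.27 and -1.93 in the same order, and that of Zfp36l1 -1.33, -1.68 and -1.48. In mock cells 2 rose, Fbxw7, part of a ubiquitin ligase for Jun, by 0.80 and Cops5, a Jun-binding subunit of the COP9 signalosome, by 0.52. The list's median was -0.80 in IFN-alpha, -0.50 in IFN-gamma and -0.80 in mock cells. Of the 5 calls in IFN-gamma cells 2 were left without replicate 1 or replicate 2 at 3 h, and of the 6 in mock cells 3 were left without replicate 3 at 3 h. Dusp1, a phosphatase of p38 and JNK, averaged 7.66 in IFN-gamma cells and 9.24 in mock cells at 1 h, a difference of -1.58 ± 0.28 (adjusted p = 0.00656, limma). It was 1 of the 9 to pass there. In IFN-alpha cells at 1 h Dusp1 averaged 9.16, which is 1.50 above IFN-gamma cells (adjusted p = 0.0136, limma). Without each of the 8 arrays in turn, the list had 0 to 1 calls in that comparison, so this call could be lost. In IFN-gamma cells Dusp1 was higher at 3 h than at 1 h by 1.09 (adjusted p = 0.0231, limma).

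Of 20 genes known as AP-1 targets 14 were tested, and 3 fell at 3 h in each treatment. Hbegf, a growth factor of the EGF family, fell by 3.04 in IFN-alpha, 2.67 in IFN-gamma and 3.14 in mock cells. Il6, a cytokine, fell by 2.53, 3.02 and 2.09, and Vegfa, the endothelial growth factor, by 0.59, 0.55 and 0.65, in the same order. The other 11, which include Timp1 and Ccnd1, did not pass, and the list's median was -0.17, -0.11 and -0.25. Without 1 array in turn the list had 2 to 3 calls in IFN-alpha, 2 in IFN-gamma and 2 to 5 in mock cells. At least 1 of the 3 calls in IFN-gamma cells was thus lost whichever array was left out. Il6 was also the only one of the 14 to pass between treatments. It was higher than in mock cells with IFN-alpha at 3 h by 1.56 ± 0.30 (adjusted p = 0.00326, limma; means of 6.55 and 4.99), with IFN-alpha at 1 h by 1.99 (adjusted p = 0.000185, limma) and with IFN-gamma at 1 h by 1.70 (adjusted p = 0.000823, limma).

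Among 22 other basic leucine zipper genes 18 were tested. Crem, of the CREB family, averaged 7.18 in IFN-gamma cells and 4.71 in mock cells at 3 h, 2.47 ± 0.29 higher (adjusted p = 9.40e-06, limma). It was lower in IFN-alpha than in IFN-gamma cells at 3 h, with a difference of -1.90, and its IFN-gamma difference from mock cells was larger at 3 h than at 1 h by 2.04. Batf2, a Jun partner, was called in the same comparisons, but the 3 IFN-gamma arrays at 3 h were the only ones above background, so it was tested only because it was high there, and its calls carry no weight. It averaged 4.91 on those arrays, against 3.01 in IFN-alpha and 2.61 in mock cells at 3 h. No other gene of the 18 passed between the treatments. Between the times Mafk, a small Maf protein, fell by 0.89 in IFN-alpha, 0.92 in IFN-gamma and 1.31 in mock cells. In mock cells Maf rose by 1.66 and Ddit3, the stress factor CHOP, by 0.90, and Ddit3 rose by 0.83 in IFN-gamma cells. Crem rose by 0.95 in IFN-alpha and 2.48 in IFN-gamma cells. The list's 3 calls in IFN-alpha cells, Batf2 among them, fell to 0 without replicate 2 at 3 h and to 1 without replicate 3 at 3 h or replicate 2 at 1 h.

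Genes whose group means ran most like those of a member were found by Pearson correlation over the 7 group means, among 2005 probe sets whose means spanned at least 1 on the log2 scale. Over so few points, which share the step between the times, high values are common, and r is given as a description. Nearest to Fos were Phlda1 (r = 0.982), Ccnl1 (0.982) and Rian (0.973). Nearest to Fosl1 were Arhgap18 (0.999), Nr4a1 (0.997) and Eaf1 (0.997), of which Nr4a1 is itself an immediate early gene. Atf3 had 2 chemokine genes, Cxcl1 (0.986) and Cxcl5 (0.980), and Arid5b (0.980). Jun by 1417409_at had Cttnbp2nl (0.956), Kitl (0.954) and Csf3 (0.950), and Kitl and Csf3 encode growth factors. Junb had Ptn (0.988), Sfrp2 (0.974) and Rian (0.971), and Fosb had Ankrd1 (0.983), Rhob (0.980) and Dbt (0.979). Fosl2 and Jund spanned less than 1 and were not compared.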

How the data were processed

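Total RNA of NIH-3T3 cells was measured on 24 one-colour Affymetrix arrays in 7 groups. Per the submitters' processing notes, the arrays were summarised with GCRMA, whose version is not given in the sources used here. The authors deposited log2 values, with array medians of 2.95 to 3.11, and these were used without further normalization. The number of arrays limits the precision. Of 45101 probe sets, 64 controls were left out. In the platform annotation 34945 of the rest had 1 gene symbol, 932 several and 9160 none, and only the first kind was used to name genes.

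Probe sets above log2 4 on at least 3 arrays (19305) were fitted with limma 3.58.1 in R 4.3.3 (package data.table, version 1.17.8), with a mean for each of 7 groups, 17 residual degrees of freedom, two-sided tests and Benjamini-Hochberg adjustment over all 19305, for 12 comparisons. Where the lower mean was under log2 4, the fold is a lower bound, with its arrays below 4 raised to 4. The fit was tested on simulated data, where it called 41 to 58% of added changes of 1 on the log2 scale and 86 to 93% of changes of 2. The simulated arrays varied independently, whereas the real arrays of a replicate number deviated together within a time. Named are all member probe sets, genes of the lists that were called, and the 3 most alike genes for each member whose group means spanned 1 or more. The members and lists were chosen with earlier results of these data known.

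The replicate numbers pair arrays within a time. Arrays of the same number deviated together in all 12 pairs at 1 h (r from 0.46 to 0.91) and all 9 at 3 h (0.13 to 0.65), but in 6 of 9 pairs with and without 4sU and 9 of 27 between the times. The number was a block in an alternative fit. For the differences between the times, that block took a number at 1 h and at 3 h as 1 set, although most such pairs did not deviate together. As 3 h had no replicate 4, the shared block also shifts those differences, and its calls between the times carry that limit. Other alternatives dropped the filter, raised values to 4, added quantile normalization, fitted fewer groups, left out the 5 arrays of high beta-actin difference, or left out each array in turn.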

Additional observations from a re-analysis of the deposited data

Results flagged for a closer look

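On replicate 4 of the IFN-gamma cells at 1 h, Fosb read 4.22, against 2.23, 2.36 and 2.27 on the other 3 arrays, and the gap covered 0.936 of the group's range. On replicate 4 of the mock cells at 1 h, Fos read 10.33, against 9.22, 9.18 and 9.38, a gap of 0.832 of the range. Of 36 groups of 4 arrays examined, these 2 passed Dixon's 95% limit, which chance passes in about 1 of 20 groups. Replicate 4 was the highest array for Fos and for Fosb in all 3 groups with 4sU at 1 h.

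The difference of Jun by 1448694_at between IFN-gamma and mock cells was larger at 3 h than at 1 h by 1.15 (adjusted p = 0.0111, limma). No explanation of these values was tested.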

How the results depend on the processing

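With the replicate number as a block, the member probe sets called moved to 3 for IFN-gamma against mock at 3 h (1 without it), 3 for IFN-alpha against IFN-gamma at 3 h (1 without it) and 1 for the IFN-alpha change between the times (0 without it). Over all probe sets the block called 660, 581 and 277 in these comparisons. Where the arrays without 4sU shared the block, 1 was called for IFN-alpha at 1 h. Fits of only the groups compared called 3, 2 and 0 for IFN-gamma against mock at 3 h, IFN-alpha against IFN-gamma at 3 h and the IFN-gamma change between the times. Over all probe sets those fits called 952, 869 and 127. They called 2 of 10 in mock cells and 3 of 10 in IFN-gamma cells between the times, against 6 and 5 in the fit of all groups. Lost in mock cells were Fos (adjusted p = 0.0711), Jun by 1417409_at (0.0652), Fosl1 (0.124) and Fosl2 (0.0766), and in IFN-gamma cells Fos (0.0677) and Fosl1 (0.0908). Fits of only the 3 h arrays, chosen after seeing the data, called 3 for IFN-gamma against mock and 2 for IFN-alpha against IFN-gamma. Quantile normalization called 0 between the interferons. With no filter the Fosl1 calls were lost (0.0521 in IFN-alpha, 0.0687 in IFN-gamma and 0.0909 in mock cells), as was Fos in mock cells (0.0566). Without each array in turn, the member calls between the times were 5 to 6 in IFN-alpha, 4 to 5 in IFN-gamma and 4 to 6 in mock cells, 1 to 1 for IFN-gamma against mock at 3 h, 0 to 0 for IFN-alpha against IFN-gamma at 3 h and 1 to 1 for the IFN-gamma change. The block changed no other member call except Fosb between the times in IFN-alpha cells. No difference that passed in any fit changed sign, whereas that of Jund between the times in mock cells, which never passed, was 0.17 with the block. That shift follows from the coding: the block was shared by both times, and replicate 4, high for Jund at 1 h, had no array at 3 h. The causes of the other shifts were not tested.

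Counts over all probe sets moved by more than 1.5 times as follows. With the block, calls against mock were 79 for IFN-alpha at 1 h (50 without it), and for IFN-gamma 229 at 1 h (95) and 660 at 3 h (385). Between the interferons they were 174 at 1 h (70) and 581 at 3 h (325), and for the change of each response 277 for IFN-alpha (184) and 328 for IFN-gamma (160). Between the times, where the block joined arrays of both times, they were 3896 in IFN-alpha (1792), 5803 in IFN-gamma (2551) and 5573 in mock cells (2188). With against without 4sU they were 111 (6). Fits of only the groups compared called 14 for IFN-alpha and 28 for IFN-gamma at 1 h, 506 and 952 at 3 h (300 and 385 in the fit of all groups), 10 and 869 between the interferons at 1 h and 3 h, 822 between the times in mock cells, 1088 in IFN-gamma cells, and 0 for 4sU. Fits of only the arrays of a time called 22, 51 and 32 at 1 h and 609, 1127 and 993 at 3 h, for IFN-alpha, IFN-gamma and the interferons against each other, and 0 for 4sU. Without the arrays of high beta-actin difference, 3521 were called between the times in mock cells and 2902 in IFN-alpha cells. No count is given there for 4sU, as 1 array without 4sU was left. Against mock cells without 4sU, 3600 were called between the times. The block shared with those arrays called 77, 206 and 166 at 1 h for IFN-alpha, IFN-gamma and the interferons against each other. For 4sU, 18 were called with no filter and 28 with values raised to 4. Without each array in turn, the calls between the times were 1007 to 1867 in IFN-alpha, 1329 to 2562 in IFN-gamma and 984 to 2675 in mock cells, and 1 to 13 for 4sU.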
